A study of Mus musculus with 6 samples.

Results

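The genes described here encode histone-modifying enzymes, ATP-dependent chromatin remodellers and the protein partners of the MLL methyltransferases, measured in mouse gastrocnemius, a calf muscle made mostly of fast fibres. They were chosen by symbol alone: names that begin with Kmt, Kdm, Setd, Sirt, Prmt, Ehmt, Suv, Ezh or Smarc, numbered Hdac, Kat, Brd and Tet genes without the class IIa deacetylases Hdac4, Hdac5, Hdac7 and Hdac9, and the partner genes Ncoa6, Paxip1, Wdr5, Ash2l, Rbbp5, Dpy30, Men1 and Cxxc1. This gave 103 of the 25927 rows of the deposited table, each with 1 such gene. Of these, 98 had been tested by the authors and 96 of them had a mean of at least 1 FPKM (fragment counts normalised for transcript length and sequencing depth) over both groups, called measured below.

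The groups were wild-type (WT) C57BL/6J mice and C57BL/6J mice with a muscle-specific MLL4SET knock-out (MLL4SET-MKO), both 8 weeks old, with 3 libraries each. The labels name the libraries biological replicates 1 to 3, without saying whether each came from a mouse of its own. The p-values rest on the authors' model of the spread between libraries, which could not be checked here. The promoter that drives the deletion and the exons removed are not stated in the sources used here. Each group is summarised in 1 FPKM value per gene, so no value of a single mouse can be shown and read depth is unknown. In whole muscle, fewer cells of a type and less RNA per cell cannot be told apart.

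MLL4, encoded by Kmt2d, places methyl groups on lysine 4 of histone H3, largely at enhancers, through its C-terminal SET domain. It works in a large complex with the shared core proteins WDR5, ASH2L, RBBP5 and DPY30 and with NCOA6, PTIP (encoded by Paxip1) and the histone demethylase UTX (encoded by Kdm6a). Kmt2c encodes its closest relative. Kmt2a, Kmt2b, Setd1a and Setd1b encode further methyltransferases that share the core proteins. Other enzymes described here add or remove acetyl and methyl groups at other residues, and SWI/SNF and ISWI remodellers move nucleosomes with energy from ATP.

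The tissue label was set beside muscle fibre markers, with no slow-fibre myosin or troponin genes for comparison. The 9 marker rows held fast-fibre genes plus Des and Mb, which are not particular to fast fibres. These 9 rows summed to 49309 FPKM in WT and 45868 FPKM in MLL4SET-MKO. Among them Mylpf, the fast regulatory myosin light chain, fell from 10773 to 6959 FPKM (q = 0.000903 in the authors' deposited table). The other 8 rows summed to 38535 FPKM in WT and 38908 FPKM in MLL4SET-MKO, so the lower sum lay in Mylpf. A sum mostly reflects the most abundant rows. Counted by row, 3 of the 9 had a higher and 6 a lower value in MLL4SET-MKO, and only Mylpf was called. All 10 macrophage markers had higher values in MLL4SET-MKO, with a sum of 101 FPKM in WT and 159 FPKM in MLL4SET-MKO, and 5 of them rose by the authors' test. None of 6 endothelial and 6 fibroblast markers was called. Of the 4 satellite cell markers, Myf5 and Chodl fell, Pax7 stood at 0.597 FPKM in WT and 0.415 FPKM in MLL4SET-MKO, and Cdh15 stood at 7.63 FPKM in both. Of 5 lymphocyte and leukocyte markers 1 was tested, Ptprc, which rose from 0.676 to 1.31 FPKM. The part of these differences in the results below was not tested.

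Kmt2d, the targeted gene (chromosome 15, 98831669 to 98871205 on mm10), stood at 8.77 FPKM in WT and at 5.65 FPKM in MLL4SET-MKO. The MLL4SET-MKO value was 64.4% of the WT value, a log2 ratio of -0.64 with a 95% interval from -0.89 to -0.38. The authors' deposited table gives q = 0.000903. An FPKM over all exons cannot tell the SET exons from the rest of the transcript. Among the 98 tested genes chosen by symbol, no other had a larger decrease on the log2(FPKM + 1) scale. On the log2 ratio itself Smarca1 had a larger decrease, at -0.70, with values below 1 FPKM in both groups. The interval of Kmt2d was worked back from the authors' p-value and not from single mice. When the authors' statistic itself was taken as the normal deviate, the interval widened to between -1.09 and -0.19, and q became 0.13.

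Besides Kmt2d, the acetyltransferase gene Kat2b, the demethylase gene Kdm4a and the ISWI remodeller gene Smarca1 fell in MLL4SET-MKO. No gene of the 98 tested was called higher, although 38 had a higher value in MLL4SET-MKO. A call means q under 0.05 in the authors' deposited table, and the 4 calls make up 4.08% of the tested genes described here. Among all 13347 tested rows 11.8% were called, 4.44% higher and 7.41% lower. At an unadjusted p under 0.05, 10 of the 98 passed (10.2%), and all 10 had lower values, against 22.2% of all tested rows in either direction and 13.4% lower. When the authors' statistic was taken as the normal deviate, none of the 98 passed, against 3.11% of the 13327 rows with a statistic.

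**Figure D1:**
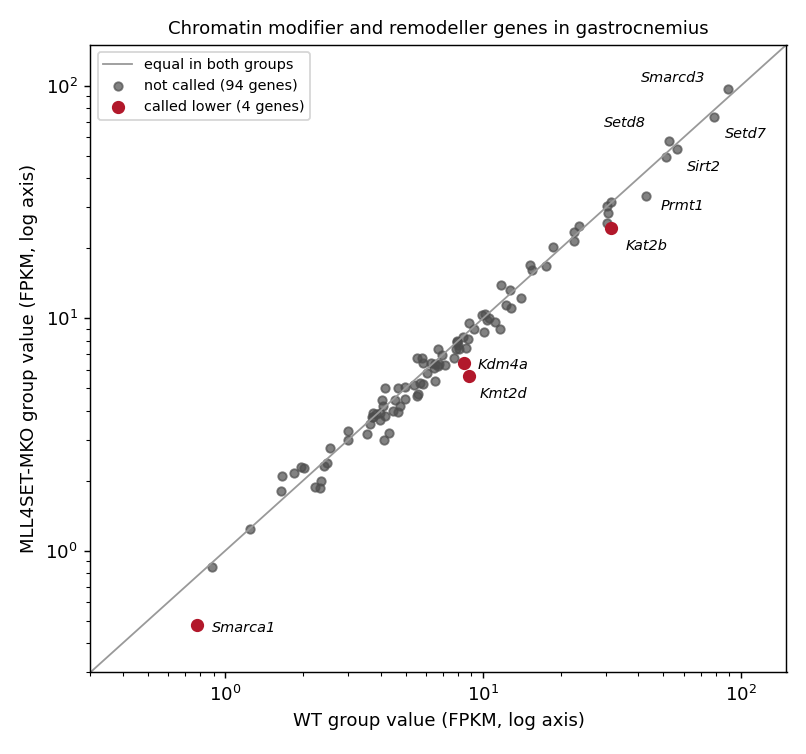
Group value of each of the 98 tested genes in WT (horizontal) and MLL4SET-MKO (vertical), both in FPKM on log axes, with a line where both are equal. The 4 called genes (red) lie below the line. The 94 others lie on both sides, from about the level of Suv39h2 (0.891 FPKM in WT) to that of Smarcd3 (88.6 FPKM). Some of them lie as far below the line as called genes, such as Hdac11 (72.6% of the WT value) against the called Kat2b (77.5%).

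The promoter windows of the 4 genes called lower are shown because they are the start regions of the only transcripts called. Each runs from 250 bases before to 50 bases after the RefSeq start (build GRCm38.p6), 5′ to 3′ on the strand of the gene. Capitals mark E-boxes (CANNTG), the motif of MyoD-type factors, and the CCAAT box on either strand (CCAAT or its reverse complement). The windows are chr15:98871156-98871455 (minus strand) for Kmt2d, chr17:53566721-53567020 (plus strand) for Kat2b, chr4:118179994-118180293 (minus strand) for Kdm4a and chrX:47892564-47892863 (minus strand) for Smarca1.
Kmt2d: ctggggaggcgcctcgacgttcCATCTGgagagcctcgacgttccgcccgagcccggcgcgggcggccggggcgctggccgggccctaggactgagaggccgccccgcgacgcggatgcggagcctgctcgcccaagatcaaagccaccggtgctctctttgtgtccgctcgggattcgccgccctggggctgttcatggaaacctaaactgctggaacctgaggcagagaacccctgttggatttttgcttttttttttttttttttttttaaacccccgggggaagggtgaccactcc
Kat2b: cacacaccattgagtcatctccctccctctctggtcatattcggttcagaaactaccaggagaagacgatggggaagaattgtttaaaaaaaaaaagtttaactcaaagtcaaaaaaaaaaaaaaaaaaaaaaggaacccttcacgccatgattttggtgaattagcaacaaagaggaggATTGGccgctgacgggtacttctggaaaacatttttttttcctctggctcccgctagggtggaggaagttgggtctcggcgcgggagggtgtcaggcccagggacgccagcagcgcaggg
Kdm4a: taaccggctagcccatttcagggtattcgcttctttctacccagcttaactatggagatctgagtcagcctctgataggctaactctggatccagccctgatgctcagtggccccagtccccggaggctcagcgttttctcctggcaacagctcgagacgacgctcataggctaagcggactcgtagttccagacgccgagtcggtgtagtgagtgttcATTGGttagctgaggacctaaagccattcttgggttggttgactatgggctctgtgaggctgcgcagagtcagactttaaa
Smarca1: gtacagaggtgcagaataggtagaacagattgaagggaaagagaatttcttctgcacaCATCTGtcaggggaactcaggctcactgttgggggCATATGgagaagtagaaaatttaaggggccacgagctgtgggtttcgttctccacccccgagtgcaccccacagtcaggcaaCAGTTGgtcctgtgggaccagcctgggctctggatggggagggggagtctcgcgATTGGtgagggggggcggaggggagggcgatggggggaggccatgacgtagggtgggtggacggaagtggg

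The Kmt2d window held 1 E-box and no CCAAT box, those of Kat2b and Kdm4a held no E-box and 1 CCAAT box each, and that of Smarca1 held 3 E-boxes and 1 CCAAT box. None of the 4 held CTANNNNTAG, which reads the same on both strands. It was used as a loose pattern for MEF2 sites: its middle accepts any base, so a match need not be a MEF2 site. Its fixed ends can also miss variant sites. No match says only that these letters were not in this window. Of the 98 tested genes, 81 had a RefSeq window: 49 held an E-box (60.5%), 31 a CCAAT box (38.3%) and 2 the pattern CTANNNNTAG (2.47%). Over 9686 windows of all tested genes the shares were 63.0%, 38.4% and 3.15%. The RefSeq start lay within 100 bases of the deposited gene start for 69 of the 81 windows and for 7762 of the 9686. Others lay far from it, such as that of Setd5 at 27296 bases, and may not be the start used in this muscle. The windows of Kmt2d and Smarca1 differed in CpG content, with an observed over expected CpG ratio of 0.917 and 0.406. A ratio of at least 0.6 was reached by 70 of the 81 windows (86.4%), against 72.6% of all windows, and the median GC content was 61.0% in both sets.

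Among the methyltransferases related to MLL4, Kmt2d was the only one called. Kmt2c, its closest relative, stood at 5.60 FPKM in WT and 4.71 FPKM in MLL4SET-MKO (log2 ratio -0.25, interval -0.50 to 0.00). The authors' deposited table gives it p = 0.0478 and q = 0.22. The founding family member Kmt2a stood at 4.77 and 4.18 FPKM (log2 ratio -0.19, interval -0.44 to 0.06). Its relative Kmt2b stood at 3.69 FPKM in WT and 3.75 FPKM in MLL4SET-MKO (0.02, interval -0.24 to 0.29). All 3 lay below Kmt2d in WT, and Kmt2c and Kmt2a remained below it in MLL4SET-MKO, as did Kmt2b.

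The SET1-type gene Setd1b stood at 1.97 FPKM in WT and 2.28 FPKM in MLL4SET-MKO (log2 ratio 0.21, interval -0.07 to 0.50). The row of Setd1a, which it shares with Hsd3b7 and Orai3, stood at 17.4 and 16.8 FPKM (-0.05, interval -0.38 to 0.28). Kmt2e, a more distant member of the family, stood at 6.90 FPKM in WT and 6.96 FPKM in MLL4SET-MKO at a locus shared with Srpk2 (0.01, interval -0.42 to 0.44). Setd7, which encodes a mono-methyltransferase first known for histone H3 lysine 4, was among the most abundant of all, at 78.6 and 73.5 FPKM (-0.10, interval -0.34 to 0.15). None of these 4 was called.

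The change of Kmt2d itself was compared with that of each of its 6 relatives, with the errors of both genes taken as independent and no adjustment for the number of comparisons. Its log2 ratio was lower than that of Kmt2c by -0.39 (interval of the difference -0.75 to -0.03) and than that of Kmt2a by -0.45 (-0.80 to -0.09). The difference was -0.66 from Kmt2b (-1.03 to -0.29) and -0.85 from Setd1b (-1.23 to -0.46). All 6 intervals lay below 0. On the wider reading of the test statistic only 2 of them did, those for Kmt2b and Setd1b.

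**Figure D2:**
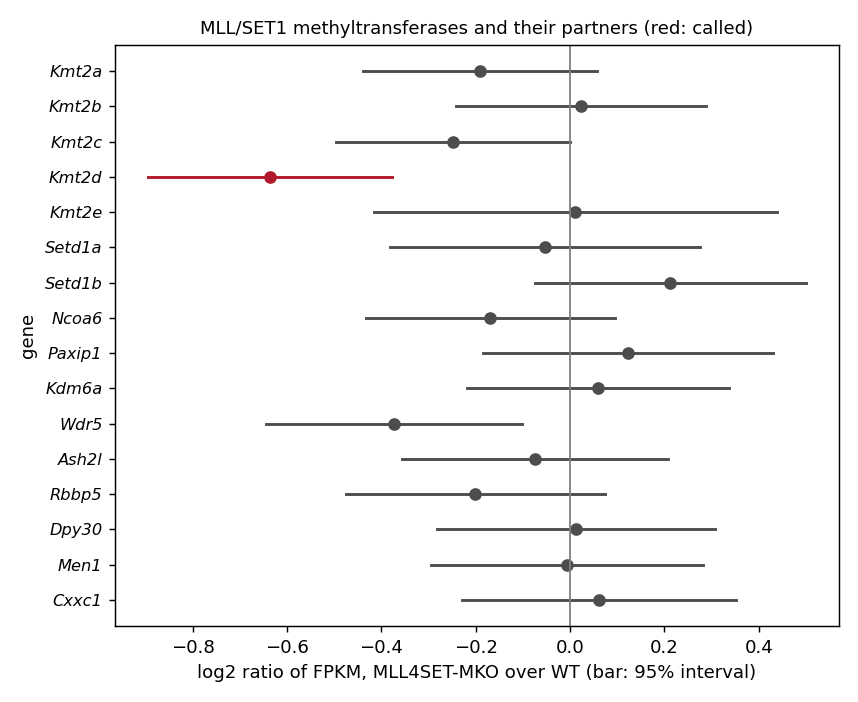
Log2 ratio of FPKM, MLL4SET-MKO over WT (point), with its 95% interval (bar), for the MLL and SET1 methyltransferases and their partners. Kmt2d (red) is the only one called, at -0.64, and the bars of Wdr5 (-0.37) and Kmt2d are the ones that end left of 0.

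None of the partners, whether of the shared core or of the MLL3 and MLL4 complexes, was called. Wdr5, the shared scaffold that holds methyltransferase and core together, came nearest, at 11.7 FPKM in WT and 9.0 FPKM in MLL4SET-MKO (log2 ratio -0.37, interval -0.64 to -0.10). The authors' deposited table gives q = 0.0562, just outside the threshold. Rbbp5, measured in 1 row with Tmem81, stood at 8.55 and 7.44 FPKM (-0.20, interval -0.48 to 0.07). Ash2l, at a locus shared with Star, stood at 10.3 and 9.80 FPKM (-0.07), and Dpy30, the most abundant partner gene, at 31.3 and 31.6 FPKM (0.01, interval -0.28 to 0.31).

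Of the partners that distinguish the MLL3 and MLL4 complexes within the family, Ncoa6, a nuclear receptor coactivator, stood at 4.48 FPKM in WT and 3.98 FPKM in MLL4SET-MKO (log2 ratio -0.17, interval -0.43 to 0.09). Paxip1 stood at 3.0 and 3.27 FPKM (0.12, interval -0.18 to 0.43). Kdm6a, which removes methyl groups from histone H3 lysine 27, stood at 3.75 and 3.91 FPKM (0.06, interval -0.22 to 0.34). Menin (Men1), a partner of MLL1 and MLL2 measured in 1 row with Map4k2, stood at 7.94 and 7.90 FPKM (-0.01). Cxxc1, the CpG-binding subunit of the SET1 complexes, stood at 9.86 and 10.3 FPKM (0.06). Over the 16 H3K4 methyltransferases and partners without Kdm6a, 6 had a higher and 10 a lower value, with a median change of -0.06. The median over all measured rows was -0.03. Here and below, a change is log2((MLL4SET-MKO FPKM + 1)/(WT FPKM + 1)), which understates the change of low genes, and a log2 ratio has no pseudocount.

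Of the 18 lysine demethylase genes, 17 were tested, 1 was called lower and none higher. Kdm4a, which demethylates histone H3 lysine 9 and lysine 36, fell from 8.39 to 6.39 FPKM (log2 ratio -0.39, interval -0.65 to -0.13, q = 0.0273 in the authors' deposited table). Its q became 0.0565 once ratios were centred on the median of all measured rows, a log2 ratio of -0.04. Kdm2b, a demethylase with a CpG-binding domain that recruits a Polycomb complex, stood at 4.32 and 3.22 FPKM (-0.42, interval -0.72 to -0.13), and its q of 0.0506 in the authors' deposited table lay just outside. The most abundant demethylase genes were Kdm2a, at 11.1 FPKM in WT and 9.61 FPKM in MLL4SET-MKO, and Kdm7a, at 10.05 and 8.69 FPKM, neither called. Kdm6b, the relative of UTX, had the largest increase of the group, at 6.65 and 7.35 FPKM (0.15, interval -0.11 to 0.40). The H3K4 demethylases of the Kdm5 family and the pair Kdm1a and Kdm1b were not called, with changes between -0.12 (Kdm5d) and 0.11 (Kdm5c). Kdm3a, Kdm3b, Kdm4b, Kdm4c and Kdm8 had changes between -0.12 and 0.01, and Kdm4d, at 0.00665 and 0.00588 FPKM, was not tested. Kdm5d lies on the Y chromosome and was present in both groups, at 3.55 FPKM in WT and 3.18 FPKM in MLL4SET-MKO. Sex is not given in the labels, and Xist, the RNA of the inactive X chromosome, was near 0 in both groups (0.00306 and 0.00252 FPKM).

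The other lysine methyltransferase genes held 16 rows, of which 15 were tested and none was called. Setd3, which methylates a histidine of actin, stood at 51.2 and 49.2 FPKM, and Setd8 (Kmt5a), the histone H4 lysine 20 mono-methyltransferase, at 52.4 and 57.6 FPKM. The largest decrease was that of Suv420h2 (Kmt5c), which adds further methyl groups at the same lysine, at 4.69 FPKM in WT and 3.95 FPKM in MLL4SET-MKO (log2 ratio -0.25, interval -0.59 to 0.09). The largest increase was that of Ehmt2, the histone H3 lysine 9 methyltransferase G9a, at 11.7 and 13.9 FPKM (0.24, interval -0.01 to 0.50). Its partner in a shared dimer, Ehmt1, stood at 5.84 and 5.18 FPKM (-0.17, interval -0.44 to 0.09). Setd2, the histone H3 lysine 36 tri-methyltransferase, stood at 5.66 and 5.28 FPKM, and Setdb1, which acts at silenced repeats, at 4.96 and 5.04 FPKM, at a locus shared with Cers2. Of the remaining members of the group, Suv420h1 (Kmt5b), Suv39h1, Suv39h2, Setdb2, Setd5 and Setd6 had changes between -0.16 and -0.01. Setd4, at 0.428 and 0.375 FPKM, was not tested.

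Among 7 acetyltransferase genes 1 was called lower. Kat2b, which encodes PCAF, a coactivator that acetylates histone H3 and MyoD, fell from 31.3 to 24.3 FPKM (log2 ratio -0.37, interval -0.61 to -0.12, q = 0.0323 in the authors' deposited table). Its q became 0.0624 under the same centring. It was the most abundant acetyltransferase gene in both groups. Kat7 stood at 6.50 and 5.34 FPKM (-0.28, interval -0.55 to -0.02, q = 0.18 in the authors' deposited table). Kat8, the histone H4 lysine 16 acetyltransferase, stood at 12.9 FPKM in WT and 11.1 FPKM in MLL4SET-MKO, at a locus shared with Prss8. Kat5 had the largest increase of the group, at 7.88 and 7.96 FPKM, and Kat2a, Kat6a and Kat6b had changes between -0.09 and 0.00.

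None of 7 histone deacetylase and 7 sirtuin genes was called. Among the class I deacetylases, which remove acetyl groups in repressor complexes, Hdac2 stood at 30.6 FPKM in WT and 28.3 FPKM in MLL4SET-MKO and Hdac3 at 30.1 and 25.6 FPKM. Hdac1 had the largest increase on the log2(FPKM + 1) scale of all 98 genes, at 5.55 and 6.77 FPKM (log2 ratio 0.29, interval -0.02 to 0.59, q = 0.26 in the authors' deposited table). Hdac11 had the largest decrease of the group, at 4.13 and 3.0 FPKM (-0.46, interval -0.81 to -0.11). The authors' deposited table gives it q = 0.0697. Hdac6, Hdac8 and Hdac10 had changes between 0.12 and 0.22. Sirt2, a mainly cytoplasmic deacetylase, was the most abundant sirtuin gene, at 56.2 and 53.2 FPKM, at a locus shared with Gm19897. Sirt1, the nuclear NAD-dependent deacetylase, had the largest decrease among sirtuins, at 4.18 and 3.80 FPKM (-0.14, interval -0.43 to 0.16). The mitochondrial Sirt5 had the largest increase, at 5.8 and 6.74 FPKM (0.22, interval -0.13 to 0.56). The row of Sirt7, which it shares with Mafg and Pycr1 at a locus with Mir6936, stood at 23.6 and 24.9 FPKM. Sirt3, Sirt4 and Sirt6 had changes between -0.04 and 0.05.

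Of 8 arginine methyltransferase genes 7 were tested and none was called. Prmt1, which makes most asymmetric dimethylarginine, stood at 42.7 FPKM in WT and 33.5 FPKM in MLL4SET-MKO (log2 ratio -0.35, interval -0.61 to -0.09). The authors' deposited table gives it q = 0.0697. Prmt6 had the largest increase, at 1.66 and 2.09 FPKM (0.33, interval -0.07 to 0.74). Prmt7 stood at 22.5 and 21.4 FPKM, at a locus shared with Smpd3, and Prmt5, the main symmetric arginine methyltransferase, at 18.7 and 20.3 FPKM. Prmt2, Prmt3 and Prmt10 (Prmt9) had changes between -0.05 and -0.04. The brain-enriched Prmt8 was listed at 0 in both groups and was not tested.

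The 7 bromodomain genes, which encode readers of acetylated lysine, had changes between -0.12 (Brd9) and 0.10 (Brd3), and none was called. Brd7, a subunit of the PBAF form of SWI/SNF, stood at 30.2 and 30.4 FPKM (log2 ratio 0.01, interval -0.23 to 0.25), and Brd2 at 22.4 and 23.4 FPKM. Of the Tet genes, whose enzymes oxidise methylcytosine, Tet2 stood at 5.56 and 4.63 FPKM (log2 ratio -0.26, interval -0.53 to 0.00) and Tet3 at 4.55 and 4.44 FPKM. Tet1, at 0.267 and 0.212 FPKM, was not tested.

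Of 14 SWI/SNF and related remodeller rows, 13 were tested and 1 was called. Smarca1, an ISWI ATPase gene, fell from 0.778 to 0.481 FPKM (log2 ratio -0.70, interval -1.14 to -0.25, q = 0.0182 in the authors' deposited table), a level below 1 FPKM in both groups. Its paralogue Smarca5 stood at 12.2 and 11.4 FPKM. Smarcd3, which encodes the muscle-enriched subunit BAF60c, was the most abundant of all 103 genes, at 88.6 FPKM in WT and 96.8 FPKM in MLL4SET-MKO (0.13, interval -0.15 to 0.41), at a locus shared with Chpf2. The ATPase genes Smarca2 and Smarca4 stood at 15.2 and 10.2 FPKM in WT and at 16.8 and 10.4 FPKM in MLL4SET-MKO. Smarca2, at a locus shared with 4931403E22Rik, had the largest increase among the remodellers (0.15, interval -0.14 to 0.44). Smarcd1 had the largest decrease among the measured ones, at 2.33 and 1.86 FPKM (-0.32, interval -0.70 to 0.05). It lies 0.871 Mb from Kmt2d on chromosome 15. Hdac10 and Brd1, on the same chromosome at 9.71 and 10.1 Mb from Kmt2d, had log2 ratios of 0.27 and -0.01. A part of position in these values was not tested. The core subunit genes Smarcb1, Smarcc1, Smarcc2 and Smarce1 were not called, with changes between -0.18 and 0.12. The SNF2-family genes Smarcad1 and Smarcal1 stood at 2.24 and 4.69 FPKM in WT and at 1.87 and 5.02 FPKM in MLL4SET-MKO. The pseudogene Smarca5-ps, at 0.0078 and 0.0129 FPKM, was not tested.

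**Figure D3:**
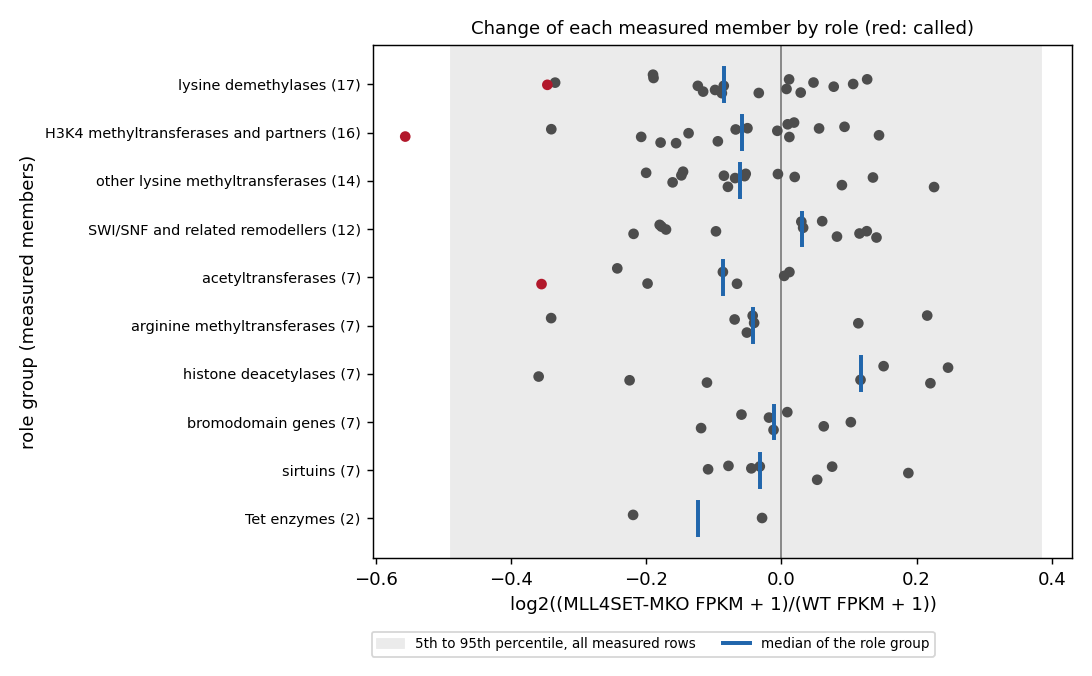
Change of each of the 96 measured genes on the log2((MLL4SET-MKO FPKM + 1)/(WT FPKM + 1)) scale, by role, with the median of each role group (blue) and the range from the 5th to the 95th percentile of all measured rows (grey, -0.49 to 0.38). Red points are called genes, and Kmt2d at -0.56 is the only point outside the grey range.

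The 96 measured genes had a narrow range of changes. Their 5th to 95th percentiles ran from -0.34 to 0.16, against -0.49 to 0.38 over all measured rows. The median change was -0.05, against -0.03, and it became 0.02 once the trend of change with transcript length and level was removed. Higher values in MLL4SET-MKO were found for 38 of the 98 tested genes (38.8%), against 45.7% of all tested rows. Role group medians ran from -0.12 for the 2 measured Tet genes to 0.12 for the 7 histone deacetylases.

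A missed threshold does not show that a gene did not change, so the intervals were counted. For 80 of the 94 genes that were not called (85.1%), the 95% interval of the log2 ratio lay within a 1.5-fold change in either direction. The same held for 71.2% of all measured rows that were not called. On the wider reading of the authors' statistic the count was 38 of 94 (40.4%), against 26.1% of those rows. In the narrower reading, of the other 14 the interval reached past 1.5-fold lower in 9, past 1.5-fold higher in 4 and past both in 1, Prmt2, with an interval from -0.73 to 0.60. Of the 103 genes, 21 shared a locus or a row with another gene, so their reads may overlap, Kdm7a, Setd7 and Tet3 among them. The median standard error of the log2 ratio was 0.14 for the 98 genes and 0.15 for all measured rows.

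Within families, 1 paralogue was often well above the other. The WT ratio ran from 1.50-fold (Smarca2 over Smarca4) to 38.0-fold over 12 pairs, while none of the 98 genes differed by more than 1.62-fold between the groups (Smarca1). The pairs named here were chosen after their values were seen, and FPKM is scaled to transcript length. Ezh1, the Polycomb methyltransferase of resting cells, was 6.40 times as high as Ezh2, that of dividing cells, in WT and 5.51 times in MLL4SET-MKO. Kat2b was 4.88 times as high as Kat2a in WT and 3.99 times in MLL4SET-MKO. Hdac2 was 5.51 times as high as Hdac1 in WT and 4.18 times in MLL4SET-MKO. Smarcd3 exceeded Smarcd2 by 14.1-fold in WT and 15.0-fold in MLL4SET-MKO, and Smarcd1 by 38.0-fold and 52.0-fold.

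The higher paralogue was the same in both groups in each of 12 pairs. The pairs were chosen after their values were seen, so no conclusion is drawn from this count. The ratio of Kmt2d to Kmt2c moved from 1.57 in WT to 1.20 in MLL4SET-MKO, and that of Ehmt2 to Ehmt1 from 2.01 to 2.68. The 95% interval of the shift in ratio lay away from 0 in 4 of the 12 pairs, with no adjustment for their number: Kmt2d and Kmt2c, Ehmt2 and Ehmt1, Hdac2 and Hdac1, and Smarca5 and Smarca1. For Hdac2 and Hdac1 its upper end was -0.01. On the wider reading of the authors' statistic the interval lay away from 0 in 0 of the 12 pairs.

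**Figure D4:**
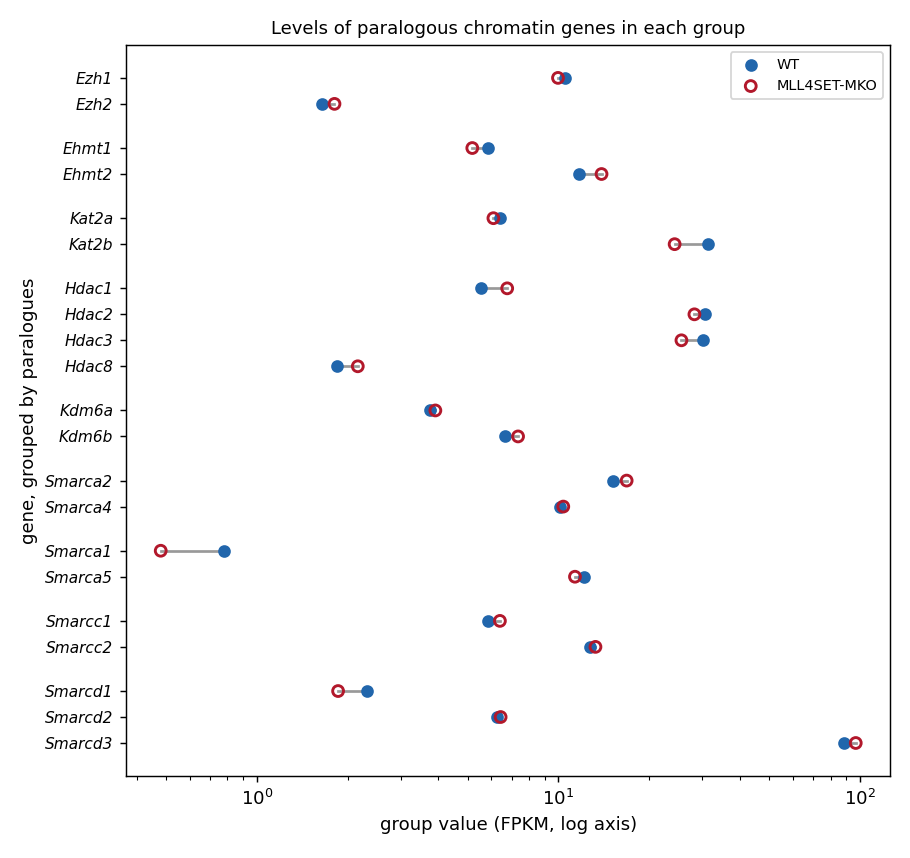
Group values in FPKM (log axis) of paralogous chromatin genes in WT (filled blue) and MLL4SET-MKO (open red). Ezh1 lies at 10.5 and Ezh2 at 1.64 FPKM in WT, and Smarca1 shows the widest gap between the groups (0.778 and 0.481 FPKM).

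Chromatin genes outside the naming rule, 116 rows of Polycomb, NuRD, CHD, ISWI, INO80, SWI/SNF, DNA methylation, coactivator and corepressor genes, were read in the same way. Of 109 tested, 5 were called, all lower (4.59%), against 11.8% of all tested rows called and 7.41% called lower. The median change of the 103 measured was -0.09, against -0.03 over all measured rows. This median was not recomputed with the trend of change with transcript length and level removed. When the authors' statistic was taken as the normal deviate, q of the 5 called genes lay between 0.0634 and 0.673. Chd6, a CHD remodeller gene, fell from 7.32 to 4.30 FPKM (log2 ratio -0.77, interval -1.05 to -0.48). Mta1, a NuRD subunit gene, fell from 17.5 to 11.9 FPKM (-0.56, interval -0.82 to -0.30). Dnmt3a, the DNA methyltransferase, fell from 18.3 to 13.1 FPKM at a shared locus (-0.48), and Ncoa3, a coactivator with acetyltransferase partners, from 6.94 to 5.16 FPKM (-0.43). None of 25 tested Polycomb, 13 other methyltransferase, 18 ISWI and INO80, 13 further SWI/SNF and 5 MLL-associated rows was called.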

How the data were processed

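Messenger RNA of gastrocnemius was sequenced in 3 WT and 3 MLL4SET-MKO libraries. TopHat2 2.0.14, Cufflinks 2.2.1, FastQC 0.11.3 and bcl2fastq are listed in the submitters' processing notes, with build mm10 (GRCm38). Annotation release, strand setting and library scaling are not stated in the sources used here. The deposited table is in the layout of Cuffdiff, per the file headers, and gives 1 FPKM value per group, a test statistic (a score), a p-value and a q-value for each row. It held 25927 rows and 1 emptied line. The authors' status is tested for 13347 rows, untested for 12569 and an excess of reads for 11. FPKM carries no counts, so depth is unknown and no values of single libraries entered.

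Calls use the q-value of the authors' deposited table under 0.05. The authors' adjustment over all tested rows matched a Benjamini-Hochberg adjustment of their p-values within 0.0001. The authors' p-values corresponded to a normal deviate of 1.73 times their test statistic, the median of 11570 rows. Standard errors and 95% intervals of log2 ratios were worked back on that basis. A simulation tested this arithmetic with the factor taken as given, so the factor itself was not tested, and results are also given with the statistic taken as the deviate. They describe the authors' model of the spread, not a spread between libraries measured here. Changes use a pseudocount of 1 FPKM. Table starts were counted from 1. RefSeq windows were matched by symbol or synonym, and the window nearest the table's gene start was used. Analyses used Python 3.11.15, numpy 2.4.6, pandas 2.3.3, scipy 1.17.1 and matplotlib 3.10.9.

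The genes and lists were chosen with earlier results of these data known. Named are Kmt2d, all called genes, all MLL/SET1 genes and partners, and per role group the 2 of highest level and the ones of largest increase and decrease, which gave 49 genes. From the other chromatin lists, up to 4 called genes each were named. Other genes named were picked after their values were seen. Some of these genes are counted but not reported here. Alternatives were another reading of the test statistic, q under 0.01, filters on low values, rows with shared loci left out, a minimum log2 ratio of 0.5, pseudocounts, and centring or removal of a length and level trend.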

Additional observations from a re-analysis of the deposited data

How the results depend on the processing

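There were 4 calls, all lower. Taking the authors' statistic itself as the normal deviate left 0 calls, all lower calls included, and the Kmt2d log2 ratio of -0.64 had q = 0.13. A q threshold of 0.01 left 1 (Kmt2d), an absolute log2 ratio of at least 0.5 left 2 (Kmt2d and Smarca1), a mean of at least 1 FPKM left 3, and leaving out shared loci left 4. Centring on the median of all measured rows left 2 calls. Removal of the trend with length and mean FPKM left 1 of 3, since Smarca1 lay under the minimum of 1 FPKM and was not run there. Kat2b and Kdm4a missed the threshold under both (q between 0.0565 and 0.15), and Kmt2d passed under both. The sign reversed for genes near 0 that were not called. Centring gave Men1 a change of 0.0245 and Tet3 0.00194. Removal of the trend gave Ash2l 0.0277, Men1 0.0380, Prmt7 0.0211, Setd1a 0.0417, Setd3 0.0417, Setd7 0.0320, Sirt2 0.00834 and Tet3 0.0735. The median change of the 96 measured genes lay between -0.07 (at least 5 FPKM) and 0.02 (trend removed). No gene was called higher under these alternatives. No paired analysis was possible because the table gives 1 value per group, and for the same reason no replicate could be left out.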
